A study of Homo sapiens with 4 samples.

Results

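Kinesins are motor proteins that turn ATP hydrolysis into movement along microtubules or into changes of microtubule ends. They were compared here between PC-3 cells that overexpressed RRM2, the small subunit of ribonucleotide reductase, and PC-3 cells that carried the empty vector. The members were the genes whose symbol is KIF followed by a number, with or without a letter A to C, or KIFC1 to KIFC3. This gave 37 of the 17634 genes in the count table. Of these, 12 were taken as mitotic motors from their known roles (KIF2C, KIF4A, KIF11, KIF14, KIF15, KIF18A, KIF18B, KIF20A, KIF20B, KIF22, KIF23 and KIFC1), and the other 25 were set against them. The members were chosen with earlier results of these data known, so counts over them are descriptions. The pattern of symbols left out CENPE, a mitotic kinesin with another name. KIF5A, KIF2B, KIF19, KIF6 and KIF25 had no row in the count table used and were not analysed here.

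The RNA-seq series held 2 PC-3-RRM2 libraries and 2 PC-3-EV libraries. PC-3 is a line from a bone metastasis of prostate cancer. PC-3-RRM2 cells were a stable line made with a lentiviral vector encoding RRM2 and kept under puromycin, and PC-3-EV cells carried the empty vector. Whether the 2 libraries of each line were grown as separate cultures is not stated. The p-values hence cover the differences between libraries alone, and these may be technical.

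In dividing cells, mitotic kinesins separate the spindle poles, trim microtubule ends at kinetochores, push chromosome arms and build the midzone where the cell is cut apart. They are made mainly in late S phase, G2 and mitosis. The transport kinesins carry mitochondria, vesicles, endosomes and ciliary cargo throughout the cell cycle, with partner proteins that choose the load. Neurons and ciliated cells use many of them most heavily.

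The 4 libraries held between 30149181 and 37801301 estimated counts. RRM2 was at 97.7 ± 1.56 CPM in PC-3-RRM2 and 21.3 ± 0.705 CPM in PC-3-EV (SD, n = 2 each), where CPM is the count relative to the library size after scaling by TMM. Of 5 epithelial markers, CDH1 (4.95-fold) and EPCAM (7.66-fold) were called higher, KRT19 lay at -0.58 on the log2 scale and passed only the adjusted p of edgeR (0.02), and KRT8 and KRT18 were not called. All 5 were detected in every library, and their summed level was 718 and 626 CPM in PC-3-RRM2 and 540 and 625 CPM in PC-3-EV. Among 5 fibroblast genes LUM was called higher (2.34-fold), with summed levels of 60.4 to 86.0 CPM in PC-3-RRM2 and 66.2 to 82.8 CPM in PC-3-EV, most of it from COL1A1. Among 3 leukocyte genes CSF1R was called higher, with 18 and 11 counts in PC-3-RRM2 against 3 and 0 counts in PC-3-EV. The leukocyte sums, most of them from CD68, were 92.9 to 108 CPM in PC-3-RRM2 and 103 to 108 CPM in PC-3-EV. For 5 endothelial genes, of which KDR and PECAM1 passed the filter on low counts and were both called lower, they were 29.2 to 30.4 CPM in PC-3-RRM2 and 55.2 to 57.3 CPM in PC-3-EV. Their part in the kinesin results was not tested.

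All 12 mitotic kinesins rose in PC-3-RRM2. Calls required a fold change above 1.5 together with an adjusted p under 0.05 in the quasi-likelihood test of edgeR. By this measure 9.97% of the 15781 genes tested were higher in PC-3-RRM2 and 8.19% lower. The rises of the mitotic motors lay between 1.503-fold and 2.33-fold, with a median log2 fold change of 0.73, against 0.09 for the 24 other kinesins tested and 0.00 for all genes tested. Among the other kinesins, 2 rose, 2 fell and 20 were not called. Both PC-3-RRM2 libraries lay above both PC-3-EV libraries for 12 of 12 mitotic kinesins and for 8 of 24 others, and below them for 0 mitotic and 9 other kinesins. Of all genes tested, 35.8% were above and 33.2% below in this way. More cells in mitosis and more RNA per dividing cell cannot be told apart in bulk RNA.

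**Figure D1:**
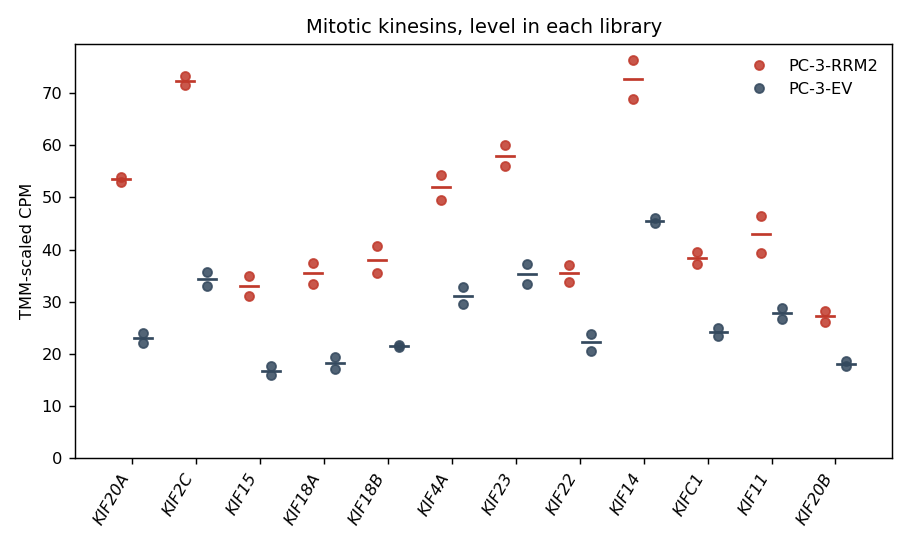
Levels of the 12 mitotic kinesins in TMM-scaled CPM on a linear axis that starts at 0, with a point for each library (2 PC-3-RRM2 in red, 2 PC-3-EV in dark blue), a line at each mean, and genes ordered by fold change. In every gene both PC-3-RRM2 points lie above both PC-3-EV points, from KIF20A (fold 2.33) to KIF20B (fold 1.503).

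The motors of the midzone and of cytokinesis held both the steepest and the flattest rise. KIF20A, which carries the chromosomal passenger complex to the central spindle and is needed for abscission, was at 53.0 and 53.9 CPM in PC-3-RRM2, against 23.9 and 22.0 CPM in PC-3-EV. Its lower PC-3-RRM2 library was far above its higher PC-3-EV library. The fold change was 2.33 (log2 1.22, SE 0.0928, edgeR adjusted p = 7.83e-05). KIF20A lies on chromosome 5 at 138178728 to 138187716, plus strand (GRCh38), and its listed span shares 68 bases with CDC23 on the opposite strand. KIF23, the motor subunit of centralspindlin, had 56.0 and 60.1 CPM in PC-3-RRM2, against 33.3 and 37.2 CPM in PC-3-EV, a 1.65-fold rise (edgeR adjusted p = 0.00108). KIF14, which brings citron kinase to the midbody, had 69.0 and 76.4 CPM in PC-3-RRM2, against 45.1 and 46.0 CPM in PC-3-EV, a 1.60-fold rise (edgeR adjusted p = 0.000977). None of these groups overlapped. KIF20B, a further motor of the midzone, had 26.2 and 28.2 CPM in PC-3-RRM2, against 17.6 and 18.6 CPM in PC-3-EV. Its fold of 1.503 sat just past the threshold (log2 0.59, SE 0.103, edgeR adjusted p = 0.00403). KIF20B was not called without EV replicate 1 (log2 0.53), EV replicate 2 (0.58) or RRM2 replicate 2 (0.53), nor with DESeq2 (0.58).

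The motors that act on microtubule ends all rose, and differences in size among them were not tested. KIF2C, a depolymerase that corrects wrong kinetochore attachments, was at 71.5 and 73.3 CPM in PC-3-RRM2, against 35.7 and 32.9 CPM in PC-3-EV. Its fold of 2.11 was the next after that of KIF20A among the mitotic motors (log2 1.08, SE 0.0869, edgeR adjusted p = 9.8e-05). KIF2C lies on chromosome 1 at 44739818 to 44767767, plus strand. KIF18A, which damps the movements of chromosomes at the metaphase plate, had 33.5 and 37.5 CPM in PC-3-RRM2, against 19.3 and 17.002 CPM in PC-3-EV (1.95-fold, edgeR adjusted p = 0.000616). KIF18B, which shortens astral microtubules, had 40.6 and 35.5 CPM in PC-3-RRM2, against 21.3 and 21.7 CPM in PC-3-EV (1.77-fold, edgeR adjusted p = 0.000871). In this group the 2 PC-3-RRM2 libraries differed less from each other than either did from PC-3-EV.

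Of the motors that set the distance between spindle poles, KIF15 rose most. KIF15, which holds bipolar spindles and can stand in for KIF11, was at 31.0 and 35.0 CPM in PC-3-RRM2, against 15.9 and 17.6 CPM in PC-3-EV (1.97-fold, log2 0.98, SE 0.112, edgeR adjusted p = 0.000543). KIF11, the tetrameric motor that slides the poles apart and is the target of mitotic kinesin inhibitors, had 39.4 and 46.4 CPM in PC-3-RRM2, against 26.8 and 28.8 CPM in PC-3-EV. This 1.54-fold rise (edgeR adjusted p = 0.00399) was called with all libraries. KIF11 was not called without EV replicate 1 (log2 0.55) or RRM2 replicate 2 (0.50). KIFC1, a minus-end-directed motor that clusters centrosomes and opposes KIF11, had 39.5 and 37.2 CPM in PC-3-RRM2, against 23.3 and 25.0 CPM in PC-3-EV (1.59-fold, edgeR adjusted p = 0.00156). The motors that open the spindle and the motor that pulls it together were therefore all higher.

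Both chromosome arm motors rose. KIF4A, a chromokinesin that also limits the length of midzone microtubules, had 49.4 and 54.4 CPM in PC-3-RRM2, against 32.7 and 29.5 CPM in PC-3-EV (1.67-fold, log2 0.74, SE 0.0994, edgeR adjusted p = 0.00116). KIF22, which binds DNA and pushes chromosome arms away from the poles, had 37.0 and 33.8 CPM in PC-3-RRM2, against 20.6 and 23.8 CPM in PC-3-EV (1.60-fold, edgeR adjusted p = 0.00297). Neither gene had overlapping groups, and KIF22 was not called without EV replicate 1 (log2 0.55).

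Across the 12 mitotic motors the log2 fold changes had an SD of 0.201, against a median SE of 0.101 for each. With glmTreat, which tests whether a change exceeds 1.5-fold, 4 of the 12 were called, namely KIF20A, KIF2C, KIF15 and KIF18A. In the fits that left out a library in turn, 9 of the 12 kept their call in all 4 fits. The exceptions were KIF20B, KIF11 and KIF22.

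**Figure D2:**
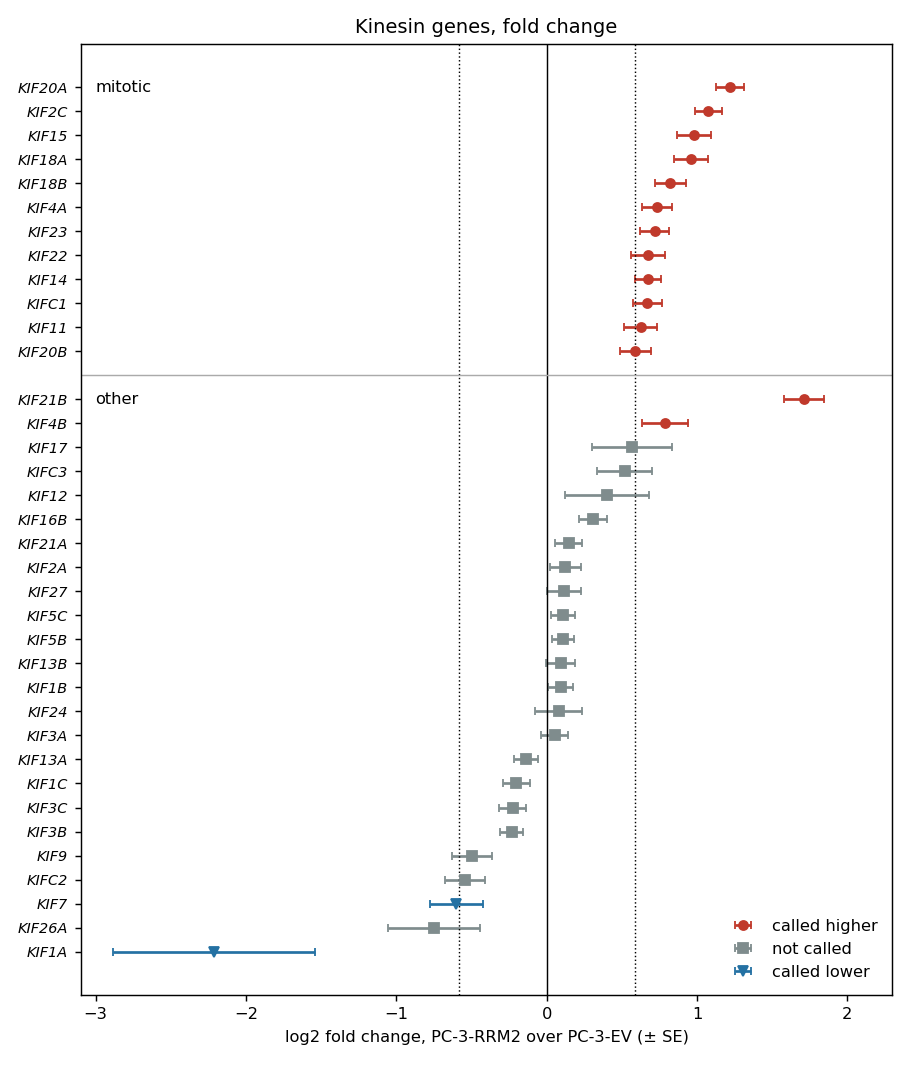
Log2 fold change of PC-3-RRM2 over PC-3-EV with its standard error for 12 mitotic (top) and 24 other kinesins, where the dotted lines mark a fold change of 1.5 and the marker gives the call. The mitotic motors run from 0.59 to 1.22, while the others run from -2.21 (KIF1A) to 1.71 (KIF21B), most of them within the dotted lines.

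Levels of different genes were compared per length, as CPM per kilobase of exon. The mitotic motors together made up 38.5% and 39.7% of the summed CPM per kilobase of all kinesins in PC-3-RRM2, against 26.1% and 25.5% in PC-3-EV. Without the length correction, the summed CPM of the mitotic motors was 546 and 572 in PC-3-RRM2, against 316 and 320 in PC-3-EV. The summed CPM of the 25 others was 1305 and 1289 in PC-3-RRM2, against 1282 and 1322 in PC-3-EV, so that their groups overlapped. KIF5B was the highest kinesin in both groups, at 43.4 ± 2.06 CPM per kilobase in PC-3-RRM2 and 40.3 ± 0.896 in PC-3-EV (SD, n = 2 each). KIF2C, the highest mitotic motor, was at 19.9 ± 0.350 CPM per kilobase in PC-3-RRM2 and 9.41 ± 0.536 in PC-3-EV, and stood at rank 3 of 37 in PC-3-RRM2 against rank 6 in PC-3-EV. Its place next to KIF3B in PC-3-RRM2, at 21.2 ± 1.57 CPM per kilobase, was within their spread. KIF20A stood at rank 7 in PC-3-RRM2 against rank 14 in PC-3-EV. Of the 12 highest kinesins, 6 were mitotic in PC-3-RRM2 and 4 in PC-3-EV. These ranks depend on the length used. For KIFC3 the exons summed to 9.6 kilobases, while the longest transcript had 3.427 kilobases, and ranks by the longest transcript were not computed.

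The promoters of the mitotic motors are shown because those genes rose together. In many genes of the late cell cycle, a CHR element (cell cycle genes homology region) near the start is the site through which MuvB complexes keep the gene off early and on late, often beside CCAAT boxes for the factor NF-Y. RefSeq (GRCh38.p14) gave a window of 250 bases before to 50 after the gene start for 31 of the 37 members. KIF13B, KIF21B, KIF26B, KIF27, KIFC2 and KIFC3 had none. In these 200-base stretches, 150 bases before the start and 50 after, capitals mark each CHR match (TTTGAA or TTCGAA) and each CCAAT match on either strand, so that TTCAAA and ATTGG are the same motifs read on the other strand. TTCGAA is its own reverse complement. KIF18A, KIF4A, KIF22 and KIF23 hold both motifs, KIF15 holds a CHR alone, KIF20A and KIF2C are the pair with the largest rises, and KIF5B is the most abundant transport motor.
KIF18A (chr11:28108107-28108306, minus strand): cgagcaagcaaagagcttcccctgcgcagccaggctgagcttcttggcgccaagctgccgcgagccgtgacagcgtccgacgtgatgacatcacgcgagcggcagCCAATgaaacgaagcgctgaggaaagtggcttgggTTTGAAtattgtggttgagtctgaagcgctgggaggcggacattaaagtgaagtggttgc
KIF4A (chrX:70289954-70290153, plus strand): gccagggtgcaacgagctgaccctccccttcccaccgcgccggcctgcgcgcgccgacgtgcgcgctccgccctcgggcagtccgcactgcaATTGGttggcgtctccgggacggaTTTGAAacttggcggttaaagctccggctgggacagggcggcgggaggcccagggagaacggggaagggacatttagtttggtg
KIF22 (chr16:29790601-29790800, plus strand): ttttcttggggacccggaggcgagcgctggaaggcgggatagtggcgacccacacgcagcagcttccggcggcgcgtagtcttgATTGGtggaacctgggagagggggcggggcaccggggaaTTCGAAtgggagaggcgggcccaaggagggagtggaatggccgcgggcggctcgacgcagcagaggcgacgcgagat
KIF23 (chr15:69414199-69414398, plus strand): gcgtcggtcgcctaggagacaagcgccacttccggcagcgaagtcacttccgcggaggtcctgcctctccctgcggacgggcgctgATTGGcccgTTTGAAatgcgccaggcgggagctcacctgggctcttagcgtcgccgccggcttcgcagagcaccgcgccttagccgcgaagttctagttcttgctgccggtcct
KIF15 (chr3:44761644-44761843, plus strand): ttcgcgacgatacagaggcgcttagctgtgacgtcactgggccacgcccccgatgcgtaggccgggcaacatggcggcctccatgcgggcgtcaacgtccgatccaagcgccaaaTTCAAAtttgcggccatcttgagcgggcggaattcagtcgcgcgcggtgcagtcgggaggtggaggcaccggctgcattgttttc
KIF20A (chr5:138178962-138179161, plus strand): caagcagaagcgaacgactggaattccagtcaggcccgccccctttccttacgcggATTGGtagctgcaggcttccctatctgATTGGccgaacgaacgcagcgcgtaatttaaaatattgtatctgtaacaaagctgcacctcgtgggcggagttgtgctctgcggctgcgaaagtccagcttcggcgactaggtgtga
KIF2C (chr1:44739687-44739886, plus strand): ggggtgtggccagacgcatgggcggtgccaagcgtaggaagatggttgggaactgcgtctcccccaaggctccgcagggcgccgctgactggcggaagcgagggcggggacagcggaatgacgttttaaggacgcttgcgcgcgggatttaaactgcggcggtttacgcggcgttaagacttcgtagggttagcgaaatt
KIF5B (chr10:32056376-32056575, minus strand): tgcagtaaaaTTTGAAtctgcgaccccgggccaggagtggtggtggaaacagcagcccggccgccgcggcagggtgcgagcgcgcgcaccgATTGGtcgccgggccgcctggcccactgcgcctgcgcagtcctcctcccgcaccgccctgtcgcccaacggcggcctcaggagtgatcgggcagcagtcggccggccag

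A CHR match stood in the whole 300-base window of 10 of 12 mitotic motors (83.3%) and of 3 of 19 other kinesins (15.8%), against 11.9% of 12772 genes of the table that had a window. A CCAAT match stood in 10 of 12 mitotic motors (83.3%) and 6 of 19 others (31.6%), against 36.4% of all genes. Both motifs were present in 9 mitotic motors (75.0%) and 3 others (15.8%), against 5.03% of all genes, and no CHR match overlapped a CCAAT match. Within 50 bases on either side of the start, a CHR match was found in 75.0% of the mitotic motors, 10.5% of the other kinesins and 3.34% of all genes. Counting the first base of the gene as position 0, the match began at -10 in KIF18A, -34 in KIF4A, -27 in KIF22, -55 in KIF23 and -35 in KIF15. The other kinesins with a match were KIF24 and KIF4B, at positions 1 and 3, and KIF5B, at -140. KIF24 and KIF5B were not called. KIF20A and KIF2C, whose folds of 2.33 and 2.11 were the largest of the mitotic motors, held neither TTTGAA nor TTCGAA in the 300-base window. Other forms of the CHR were not searched for. Both printed stretches hold TTTAAA, which was seen afterwards and is not counted as a CHR match here. Its share over the other kinesins and over all genes was not counted, so its presence in these genes cannot be weighed. The RefSeq start used for KIF20A was 384 bases from the start of that gene in the count table, which was the largest such distance among the mitotic motors. For KIFC1 it was 287 bases. In 18 of the 31 windows the first 30 bases of the gene lay in a GENCODE transcript of that gene. The mitotic KIF11, KIF14, KIF18B and KIF20B were not among these, so positions and the shares near the start depend on the start used. A match of letters is not a test of binding.

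**Figure D3:**
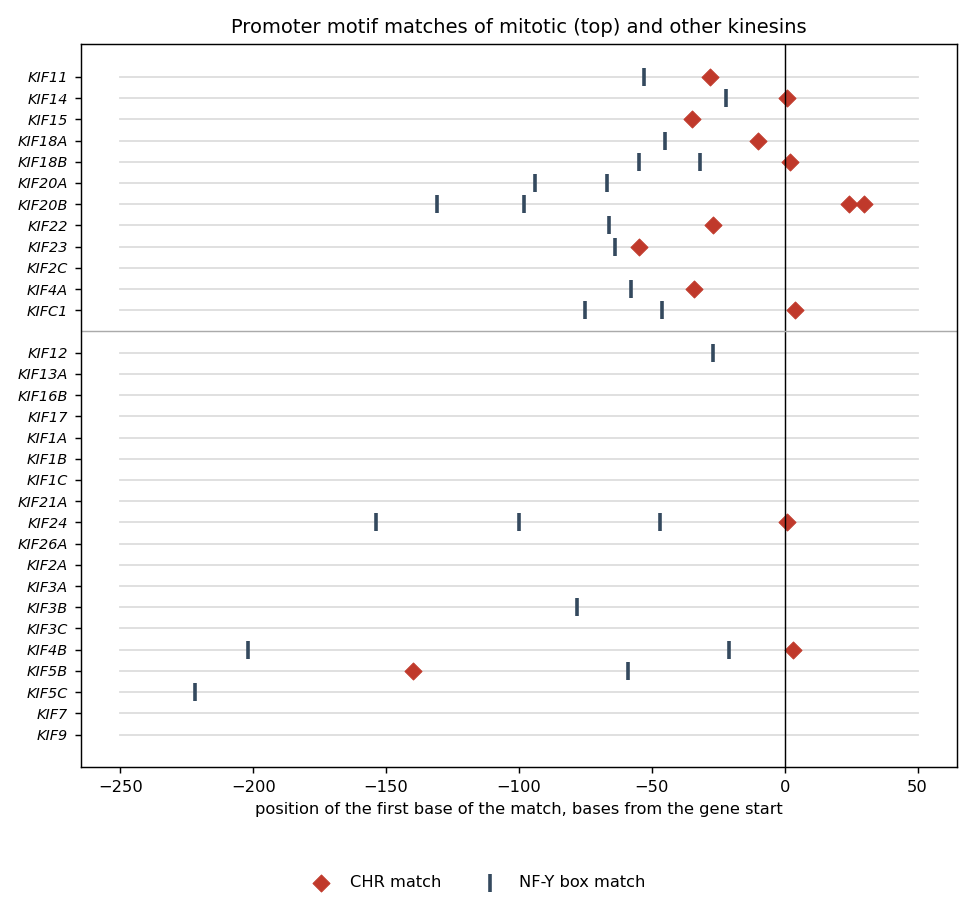
Positions of CHR matches (red diamonds) and of NF-Y boxes (CCAAT matches, dark bars) in the promoter windows of 12 mitotic (top) and 19 other kinesins, in bases from the gene start, which is the vertical line. CHR matches occur in 10 of the 12 mitotic windows, between -55 and 30, and in 3 of the 19 others.

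The transport kinesins were for the most part close to their level in PC-3-EV. KIF5B, the widely expressed heavy chain of kinesin-1 that carries mitochondria and vesicles, was at 247 and 264 CPM in PC-3-RRM2, against 240 and 233 CPM in PC-3-EV (1.08-fold, log2 0.11, SE 0.0718, edgeR adjusted p = 0.277). KIF5C, the heavy chain known best from neurons, was at 84.3 and 90.9 CPM in PC-3-RRM2, against 81.2 and 81.2 CPM in PC-3-EV (1.08-fold, edgeR adjusted p = 0.309). In both genes the groups did not overlap, yet the differences were small and missed the threshold.

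Of the kinesin-2 motors, which pull cargo towards the tip of the cilium, none was called. KIF3B had 123 and 136 CPM in PC-3-RRM2, against 155 and 150 CPM in PC-3-EV (log2 fold change -0.23, SE 0.0789, edgeR adjusted p = 0.0535). KIF3A, its partner in the heterotrimeric motor, had 45.2 and 45.5 CPM in PC-3-RRM2, against 46.0 and 41.4 CPM in PC-3-EV, with overlapping groups (0.05, SE 0.0921). KIF3C, which can replace KIF3A's other partner, had 49.7 and 45.8 CPM in PC-3-RRM2, against 54.8 and 56.9 CPM in PC-3-EV (-0.23, SE 0.0871, edgeR adjusted p = 0.0793). KIF17, a homodimer of the same family, had low counts, 157 and 92 in PC-3-RRM2 against 95 and 93 in PC-3-EV. RRM2 replicate 1 stood alone there, and without RRM2 replicate 2 the gene was called (log2 fold change 0.90, against 0.57 with all libraries and 0.14 without RRM2 replicate 1).

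Among 6 kinesin-3 motors, which move vesicles and endosomes, KIF1A fell and 5 were not called. KIF1A, the carrier of synaptic vesicle precursors in neurons, had only 1 and 4 counts in PC-3-RRM2, against 13 and 14 counts in PC-3-EV. Its log2 fold change of -2.21 had an SE of 0.671 (edgeR adjusted p = 0.0366). The call ended without EV replicate 1 (log2 -2.44, adjusted p = 0.0776), EV replicate 2 (-2.06, adjusted p = 0.187) or RRM2 replicate 1 (-1.56, adjusted p = 0.141), and with DESeq2 (-2.29, adjusted p = 0.190). Without RRM2 replicate 2 it was -3.45 and stayed called. KIF16B, which positions early endosomes, passed the adjusted p but not the fold threshold, at 29.3 and 30.3 CPM in PC-3-RRM2 and 24.5 and 23.6 CPM in PC-3-EV (1.24-fold, edgeR adjusted p = 0.0392). KIF1C, a vesicle motor and the most abundant of the family by CPM per kilobase, had 147 and 129 CPM in PC-3-RRM2, against 152 and 166 CPM in PC-3-EV (log2 -0.20, SE 0.0892, edgeR adjusted p = 0.117). KIF1B, KIF13A and KIF13B, also vesicle and organelle carriers, had log2 fold changes of 0.09, -0.14 and 0.09, with SEs of 0.0837, 0.0812 and 0.0961.

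The kinesin-4 motors outside mitosis held the largest rise among the 36 kinesins tested. KIF21B, a motor that limits microtubule growth and is known from neurons and lymphocytes, was at 31.2 and 25.2 CPM in PC-3-RRM2, against 8.54 and 8.66 CPM in PC-3-EV. Its fold change was 3.27 (log2 1.71, SE 0.136, edgeR adjusted p = 9.07e-05), and it stayed called in every alternative run, the test against a fold of 1.5 included. KIF21B lies on chromosome 1 at 200969386 to 201023701, minus strand, and the mitotic KIF14 lies on the same strand of that chromosome at 200551497 to 200620735. KIF21A, its closest relative, had 39.5 and 41.6 CPM in PC-3-RRM2, against 37.1 and 36.2 CPM in PC-3-EV and was not called (1.11-fold, edgeR adjusted p = 0.233). KIF7, a ciliary regulator of Hedgehog signalling, was at 15.6 and 11.5 CPM in PC-3-RRM2, against 18.1 and 23.1 CPM in PC-3-EV. It fell by 0.60 on the log2 scale (SE 0.176, edgeR adjusted p = 0.0328), a 1.52-fold fall, and was not called without EV replicate 2 (log2 -0.46) or RRM2 replicate 2 (-0.40). KIF27, a paralog of KIF7, was not called (log2 0.12, SE 0.115).

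KIF4B, an intronless copy of KIF4A, was the other gene called higher outside the mitotic list. It had 7.474 and 8.110 CPM in PC-3-RRM2, against 4.204 and 4.839 CPM in PC-3-EV (1.73-fold, edgeR adjusted p = 0.00627), and lost its call when EV replicate 1 was left out (adjusted p = 0.0576). The counts of KIF4B were 15.1% and 14.9% of those of KIF4A in PC-3-RRM2, against 12.8% and 16.4% in PC-3-EV. Near-identical copies can share reads, so the level of KIF4B, and a part of that of KIF4A, is uncertain. Without KIF4B, 1 of 23 other kinesins was called higher.

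**Figure D4:**
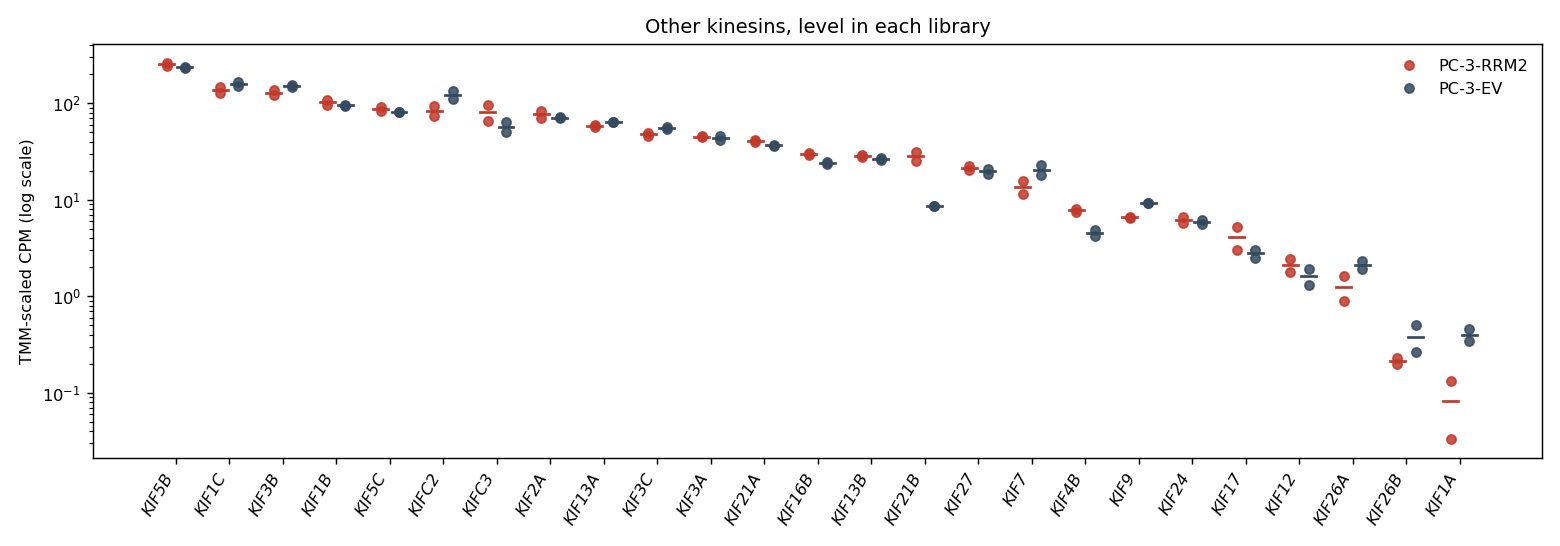
Levels of the 25 other kinesins in TMM-scaled CPM on a log axis, ordered by their mean in PC-3-RRM2, with a point for each library (PC-3-RRM2 in red, PC-3-EV in dark blue) and a line at each mean. Most pairs lie close together on this axis. Even so, both PC-3-RRM2 libraries lay above both PC-3-EV libraries in 8 of the 24 tested and below them in 9. KIF21B stands out with 31.2 and 25.2 CPM in PC-3-RRM2 against 8.54 and 8.66 CPM in PC-3-EV. KIF26B and KIF1A at the right have the lowest levels.

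In the kinesin-13 family the mitotic KIF2C rose while its relatives were not called. KIF2A, a depolymerase that also works at spindle poles although it was not among the 12, had 70.3 and 84.2 CPM in PC-3-RRM2, against 71.9 and 69.8 CPM in PC-3-EV, with overlapping groups (1.09-fold, edgeR adjusted p = 0.368). KIF24, which acts at the mother centriole, had 6.62 and 5.74 CPM in PC-3-RRM2, against 5.55 and 6.15 CPM in PC-3-EV (1.06-fold, edgeR adjusted p = 0.720). The differences of these genes from KIF2C were not tested.

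Neither of the minus-end-directed motors other than KIFC1 was called with all libraries, and both varied between libraries of a group. KIFC3, which serves apical transport and cell junctions in epithelia, was at 97.2 and 66.4 CPM in PC-3-RRM2, against 50.2 and 64.0 CPM in PC-3-EV (1.43-fold, SE 0.182 on the log2 scale, edgeR adjusted p = 0.0598). It was called without EV replicate 2 (log2 0.66) and without RRM2 replicate 2 (0.77), but not without EV replicate 1 (0.34) or RRM2 replicate 1 (0.22). KIFC2, known as a neuronal motor, was at 94.8 and 73.2 CPM in PC-3-RRM2, against 112 and 133 CPM in PC-3-EV (log2 -0.55, SE 0.133, edgeR adjusted p = 0.0161) and stayed below the fold threshold. KIFC2 was called lower without EV replicate 1 (-0.68) and without RRM2 replicate 1 (-0.74), but not without EV replicate 2 (-0.46) or RRM2 replicate 2 (-0.37).

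The remaining kinesins were low. KIF9, a motor of motile flagella, had 6.49 and 6.66 CPM in PC-3-RRM2, against 9.36 and 9.19 CPM in PC-3-EV (log2 -0.50, SE 0.134, edgeR adjusted p = 0.0239) and missed the fold threshold. With the adjusted p alone, 3 of 24 other kinesins were higher and 4 lower, against 18.8% and 15.5% of all genes. The span of KIF9 shares 16091 bases with KIF9-AS1 on the opposite strand, and with no strand setting given the reads of the pair cannot be told apart. KIF12 (log2 0.40, SE 0.279) and KIF26A (-0.75, SE 0.306) were not called, although KIF26A was called lower without RRM2 replicate 1 (-1.23), with -0.38 to -0.91 and no call when another library was left out, and with the replicate number as a block (adjusted p = 0.0408). KIF26B did not pass the filter, with 7 and 6 counts in PC-3-RRM2 against 19 and 8 in PC-3-EV.

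Most partners of the mitotic motors were higher in PC-3-RRM2. The 19 genes listed were CENPE, itself a kinesin, and genes whose products hold, load or activate the spindle motors. Of the 19, 13 were called higher, CENPE included, and 0 lower, against 9.97% and 8.19% of all genes tested. The median log2 fold change of the 19 was 0.81. Of the 6 that were not called, ECT2, INCENP, KNSTRN and RACGAP1 had log2 fold changes of 0.36 to 0.55, MAPRE1 of -0.04 and NUMA1 of -0.32. SPAG5, a spindle pole protein, was at 68.0 and 72.2 CPM in PC-3-RRM2, against 32.9 and 31.5 CPM in PC-3-EV (2.18-fold). CDCA8 and BIRC5, members of the chromosomal passenger complex, rose 2.34-fold and 1.85-fold, NUSAP1, a binder of spindle microtubules, 1.95-fold, and the kinase AURKA 2.10-fold. CENPE, the kinetochore kinesin that the symbol pattern missed, was at 84.7 and 94.2 CPM in PC-3-RRM2, against 47.8 and 48.6 CPM in PC-3-EV (1.86-fold, edgeR adjusted p = 0.00024).

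Of 21 adaptors of transport kinesins, 0 were called higher and 2 lower, beside 9.97% and 8.19% of all genes, and the median was -0.04 on the log2 scale. The count called lower is near that background, and the difference from the mitotic partners was not tested. KLC1, a light chain that links kinesin-1 to cargo, was at 91.5 and 93.2 CPM in PC-3-RRM2, against 144 and 150 CPM in PC-3-EV, and fell by 0.67 on the log2 scale (edgeR adjusted p = 0.000406). TRAK2, a mitochondrial adaptor of the same motor, was at 67.2 and 74.8 CPM in PC-3-RRM2, against 113 and 108 CPM in PC-3-EV, and fell by 0.64 (edgeR adjusted p = 0.00101). The heavy chains KIF5B and KIF5C that bind them were not called. Of 23 intraflagellar transport genes, cargo of KIF3A and KIF3B, 0 were called higher and 2 lower (median -0.18), the count called lower again near the 8.19% of all genes. The pair called lower, TTC30A (log2 fold change -1.37) and TTC30B (-1.56), are close paralogs that can share reads. With the adjusted p alone, 2 of the 23 were higher and 8 lower, against 18.8% and 15.5% of all genes.

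Of 22 genes of cytoplasmic dynein and dynactin, the motor that runs opposite to most kinesins, 2 were called higher and 0 lower (median 0.05 on the log2 scale), a count near the 9.97% of all genes called higher. These were the intermediate chain DYNC1I1, at 100 and 87 counts in PC-3-RRM2 against 57 and 35 counts in PC-3-EV, and the regulator NDEL1 (1.65-fold). Of 18 tubulins tested, 5 were called higher and 0 lower (median 0.23), beside the same 9.97% and 8.19% of all genes. TUBA1B, an abundant alpha-tubulin, was at 1036 and 981 CPM in PC-3-RRM2, against 603 and 594 CPM in PC-3-EV (1.69-fold), and TUBB2B, TUBA4A, TUBB2A and TUBB6 rose 2.71-, 1.78-, 1.63- and 1.59-fold. Tubulin genes are similar in sequence and can share reads.

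Of 13 proliferation markers, 6 were called higher and 0 lower, beside 9.97% and 8.19% of all genes (median 0.48 on the log2 scale). Their summed level was 1031 and 1106 CPM in PC-3-RRM2, against 726 and 716 CPM in PC-3-EV, and its part in the rise of the mitotic motors was not tested. Those that rose act in G2 and mitosis or mark cycling cells: CDK1 (2.36-fold), CCNA2 (2.31-fold), CCNB2 (2.05-fold), CCNB1 (1.51-fold), MKI67 (1.69-fold) and TOP2A (1.69-fold). PCNA and the MCM genes, which act in DNA replication, were not called. PCNA was at 51.6 and 50.6 CPM in PC-3-RRM2, against 55.0 and 55.9 CPM in PC-3-EV (edgeR adjusted p = 0.297). The log2 fold changes of the MCM genes lay between -0.36 (MCM3) and 0.48 (MCM7), and both of these missed only the fold threshold (edgeR adjusted p = 0.00937 and 0.00342). The same held for MCM4 (log2 0.44, edgeR adjusted p = 0.00758). Of 13 genes of the DREAM and MuvB complexes, which act on CHR elements, 1 was called higher and 0 lower (median 0.22), which is near the 9.97% of all genes called higher. It was MYBL2, the MuvB partner of late S phase, at 34.4 and 28.0 CPM in PC-3-RRM2, against 13.3 and 15.7 CPM in PC-3-EV (2.16-fold, edgeR adjusted p = 0.000836). With the adjusted p alone, 5 of these 13 genes were higher and 0 lower, against 18.8% and 15.5% of all genes.

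**Figure D5:**
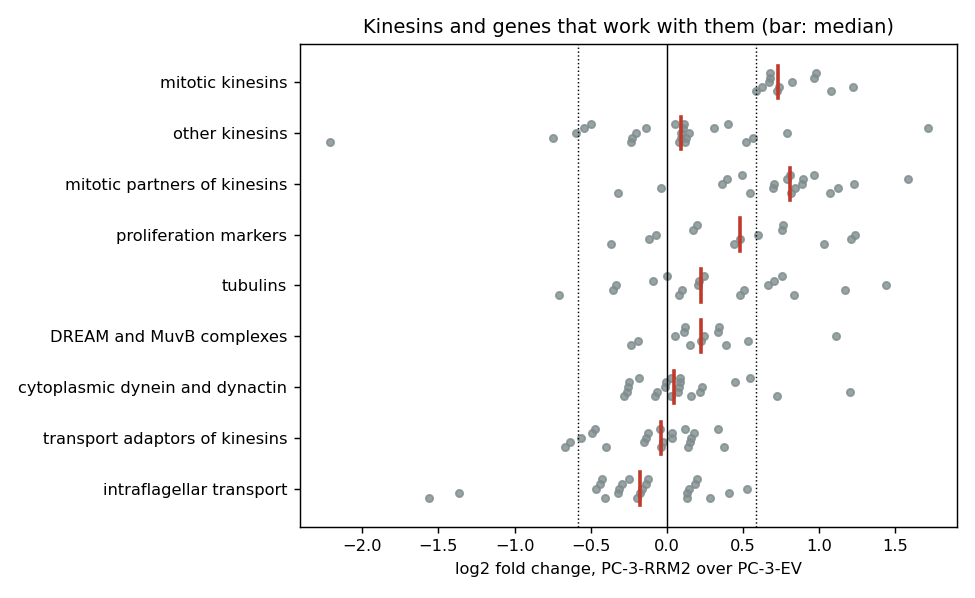
Log2 fold change of PC-3-RRM2 over PC-3-EV for each tested gene (grey points) of the kinesins and of the lists of genes that work with them, with the median as a red bar and dotted lines at a fold change of 1.5. The mitotic kinesins and their partners, with CENPE counted among the partners, have medians of 0.73 and 0.81. The other kinesins, the transport adaptors and the intraflagellar transport genes have medians of 0.09, -0.04 and -0.18.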

How the data were processed

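RNA-seq of total RNA was deposited as a table of estimated counts per gene for 2 PC-3-RRM2 and 2 PC-3-EV libraries. The authors used Partek Flow for quantification. Its version, like the aligner, annotation and strand setting, is not given in the sources used here. These deposited estimated counts were treated as not normalized. Of the values, 56.0% to 57.7% per library were whole numbers (tolerance 1e-09), which does not settle whether they had been scaled.

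Estimated counts were rounded. Genes were filtered with filterByExpr, which left 15781, scaled by TMM and tested in R 4.3.3 with edgeR 4.0.16 (quasi-likelihood F-test). P-values were adjusted over all tested genes by Benjamini-Hochberg, and the study's thresholds were applied (adjusted p of 0.05, fold change of 1.5). SE is the log2 fold change divided by the square root of F. The code was tested on simulated data. An exact permutation test of 2 libraries against 2 cannot go below p = 0.333 and was not used. Replicates of a group were not copies (chi-square per degree of freedom 15.9 for PC-3-RRM2 and 6.15 for PC-3-EV). Each member is named, with RRM2 and, of each partner list, up to 5 called genes with the smallest p, or the 2 of highest level where none was called. CENPE, CCNB1, PCNA, MCM3, MCM4, MCM7, KRT8, KRT18, KRT19, COL1A1, CD68 and the partners not called lie outside this rule and were picked with their values known. The members and lists were chosen with earlier results of these data known, so counts over them are descriptions. Exon lengths came from GENCODE release 29, and promoter windows from RefSeq, taking for each gene the start nearest to that in the table. Coordinates are those of the table (GRCh38), whose spans overlapped the RefSeq gene of the same name for all 37 members. Alternatives were RLE and upper-quartile factors, no filter, a CPM of at least 1 in all libraries, DESeq2 (version 1.42.0), limma-voom (limma version 3.58.1), glmTreat, any fold change, each library left out (the lone library of a group is then assumed to vary like the other group's), a replicate block, another gene length and a shorter promoter window.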

Additional observations from a re-analysis of the deposited data

How the results depend on the processing

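No mitotic kinesin was called lower under any alternative. The mitotic motors called higher were 11 with RLE or upper-quartile factors and with DESeq2, 12 with limma-voom, no filter, the stricter filter or any fold change, 9 to 12 when a library was left out, and 4 with glmTreat. Of all kinesins, 16 were called with all libraries, 12 to 17 when a library was left out, and 5 with glmTreat. Over all genes, glmTreat called 1260 and the adjusted p with any fold change called 5403, against 2866. The other kinesins called higher were 1 with glmTreat and 1 to 4 when a library was left out. Those called lower were 0 with glmTreat or the stricter filter, 1 with DESeq2, 4 with any fold change and 0 to 3 when a library was left out. When a library was left out, the median log2 fold change of the mitotic motors ran from 0.71 to 0.76 and that of the others from 0.038 (without RRM2 replicate 2) to 0.073 (without EV replicate 1). In the same fits the direction turned in KIF24 (-0.024 to 0.18, below 0 without EV replicate 1 and without RRM2 replicate 1), KIF3A (-0.069 to 0.11, below 0 without EV replicate 2) and KIF2A (-0.011 to 0.25, below 0 without RRM2 replicate 2), none of them called. The cause was not tested. In the 100 bases around the start, a CCAAT match stood in 33.3% of the mitotic motors and 10.5% of all genes. In the whole window these shares were 83.3% and 36.4%. A CHR match stood in 75.0% of the mitotic motors and 3.34% of all genes, against 83.3% and 11.9% in the whole window. The shorter window holds fewer letters, and the part of this in the lower shares was not tested. The labels number the libraries of each group but give no shared origin. With the replicate block 17 kinesins were called, 12 mitotic and 2 other kinesins higher and 3 lower. Deviations of same-numbered libraries correlated at r = -0.27 across 15781 genes, which are not independent, and with crossed numbers, added after the data were seen, 17 kinesins were called. Genes with few counts, such as KIF1A, KIF26A and KIF26B, are limited by depth.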
